A study of Mus musculus with 10 samples.

Results

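The genes described are 10 subunits of the BAF chromatin remodelling complex. They comprise its alternative ATPases and subunits used to tell its neural progenitor form from its neuronal form. They were chosen by name and not by a threshold on measured values, with earlier results of these data known, and are Actl6a, Phf10, Dpf2, Ss18, Smarca4, Actl6b, Dpf1, Dpf3, Ss18l1 and Smarca2. They are 10 of the 22373 genes in the table, and all 10 were among the 13484 genes that passed the filter of at least 32 footprints, summed over the libraries of a stage, in at least one stage. Ribo-seq was performed on the neocortex of CD-1 mice at 4 embryonic stages, named by the day of gestation as E12.5, E14, E15.5 and E17, and on the day of birth (P0), with 2 libraries at each stage and 10 in all. A footprint is the piece of mRNA that a ribosome shields from nuclease digestion, so its count reflects both how much of an mRNA is present and how densely ribosomes occupy it. Animals of all groups were wild-type, with no treatment named and age as the factor that differs, and per the study's methods each library was made from the pooled neocortex of many brains of both sexes. A pool averages over animals, so the spread between libraries does not measure the spread between mice.

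BAF complexes use the energy of ATP to slide and evict nucleosomes, and each complex holds 1 of a pair of alternative ATPases, Smarca4 (BRG1) or Smarca2 (BRM). As neural progenitors leave the cell cycle, several subunits of the progenitor complex are known to be exchanged for relatives found in neurons: the actin-related protein Actl6a (BAF53a) for Actl6b (BAF53b), the PHD finger proteins Phf10 (BAF45a) and Dpf2 (BAF45d) for Dpf1 (BAF45b) and Dpf3 (BAF45c), and Ss18 for Ss18l1 (CREST). The neuronal form is known for its part in dendrite growth.

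The libraries held 7544404 footprint counts (P0 replicate 1) to 36129988 (E14 replicate 2). Values below are footprints per 1000000 counts of a library (CPM), with library sizes scaled by TMM, which corrects for genes that take up a large share of a library. Histone genes held 38.5% of the counts in E12.5 replicate 2 and 6.32% in P0 replicate 2, the extremes, so the scaling matters here. Replicates were closest at E15.5 and E17 and farthest apart at P0, where the SD of the log2 ratio between replicates over 4559 genes was 0.54 against 0.13 to 0.22 at the other stages. The neocortex markers Emx1, Emx2, Lhx2, Tbr1 and Neurod6 were above 0 in every library, with stage means from 6.20 CPM (Emx2 at P0) to 285.8 CPM (Neurod6 at E15.5). Changes were tested with limma-voom, and a gene is said to have risen or fallen where its p, adjusted by Benjamini-Hochberg over all 13484 genes, was under 0.05 and its log2 change was at least 0.32 in size.

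Every member changed over the time course. Of the exchanged subunits named above, those of the progenitor complex fell and their neuronal relatives rose. The ATPases Smarca4 and Smarca2, which are not in that exchange, also went in opposite directions. From E12.5 to P0 the 5 members Actl6a, Phf10, Dpf2, Ss18 and Smarca4 fell and the 5 members Actl6b, Dpf1, Dpf3, Ss18l1 and Smarca2 rose. Over all genes tested, 30.1% rose and 32% fell in that comparison, and 10 of 10 members were called. The median log2 change was 0.22 over the members and -0.01 over all genes. In the F test over the 5 stages, adjusted p under 0.05, 10 of 10 members passed and 63.8% of all genes did. In bulk tissue, fewer cells of a type and fewer footprints per cell cannot be told apart.

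**Figure D1:**
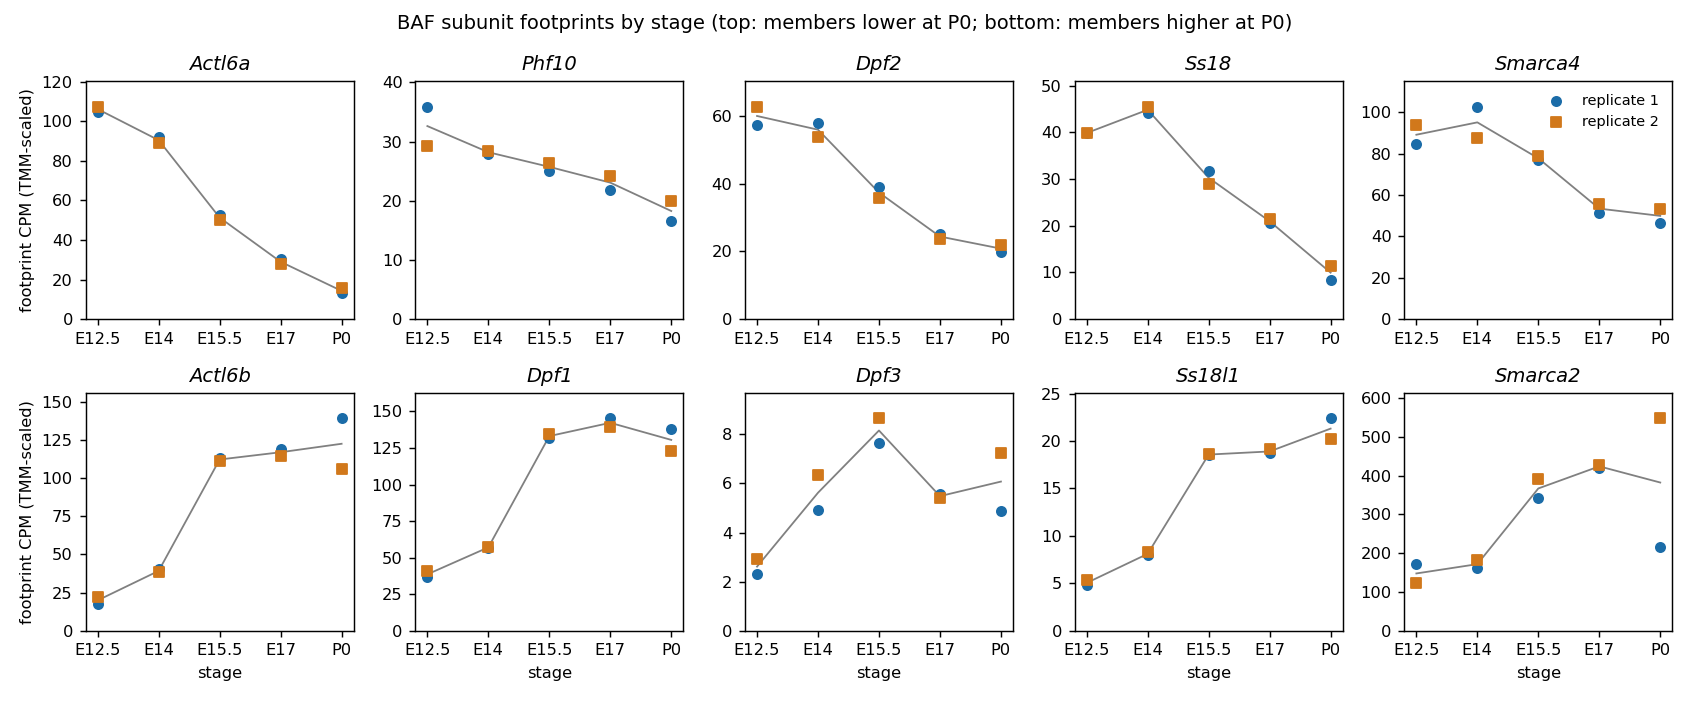
Footprint CPM (TMM-scaled, linear axis from 0, a separate scale in each panel) of the 10 members by stage. Circles are replicate 1, squares are replicate 2 and the line joins the stage means. The top row falls and the bottom row rises, most steeply between E14 and E15.5 for Actl6b, Dpf1, Ss18l1 and Smarca2, and the Smarca2 libraries at P0 lie at 216 and 548 CPM.

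The upstream sequences of 9 members were matched in RefSeq (GRCm38.p6), as windows of 250 bases before a transcript start, among 32851 such windows. Ss18 had no such window. The sequences of Actl6a, Actl6b and Dpf1 are shown because Actl6a fell while Actl6b and Dpf1 rose. Over their whole windows G and C made up 64.8%, 58.0% and 71.6% of the bases, in that order. The printed stretches hold 250, 65 and 197 bases, so they are not alike in length. Only bases outside any annotated gene are printed, and capitals mark the GC box GGGCGG on either strand. Actl6a chr3:32708296-32708545, Actl6b chr5:137553296-137553360 and Dpf1 chr7:29303755-29303951 all lie on the plus strand.
Actl6a: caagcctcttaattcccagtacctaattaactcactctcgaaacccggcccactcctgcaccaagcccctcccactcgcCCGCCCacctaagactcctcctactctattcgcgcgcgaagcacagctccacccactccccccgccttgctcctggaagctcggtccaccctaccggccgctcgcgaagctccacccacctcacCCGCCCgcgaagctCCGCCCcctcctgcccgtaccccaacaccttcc
Actl6b: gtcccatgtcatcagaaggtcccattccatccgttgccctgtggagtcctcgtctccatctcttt
Dpf1: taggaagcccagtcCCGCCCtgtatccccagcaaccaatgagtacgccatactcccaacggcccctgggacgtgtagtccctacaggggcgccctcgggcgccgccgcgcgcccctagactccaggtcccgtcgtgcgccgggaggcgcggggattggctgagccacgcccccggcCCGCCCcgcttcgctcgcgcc

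In the whole windows the GC box (GGGCGG, both strands) was found 3 times for Actl6a, 4 times for Dpf1 and not for Actl6b. It was present in 7 of 9 members and in 32.7% of all windows. The E-box CANNTG, whose letters read on both strands and do not overlap a GC box in these windows, was found in 5 of 9 members and 66.2% of all windows. Actl6a and Dpf1 had none. Actl6b had 1 (CAATTG), 157 bases before the transcript start of its window and inside the annotated span of Actl6b. The TATA box TATAAA and TTCAGCACC, the left part of the RE1 element bound by the repressor REST, were in none of the 9 windows, and in 12.4% and 0.301% of all windows. CpG pairs numbered 19 for Actl6a, 15 for Actl6b and 31 for Dpf1, against a median of 6. The window of Ss18l1 overlaps the neighbouring gene Psma7 for 232 bases. Some windows lie partly inside the annotated span of their own gene: 185 bases for Actl6b, 53 for Dpf1, 87 for Smarca2 and 63 for Smarca4. Those of Dpf2 and Smarca2 also overlap Gm42067 (168 bases) and Gm52395 (250 bases). The motif and CpG counts include all these bases, so the windows are not alike in how much lies upstream of the gene. A match is a description of letters, not of a site in use, and no footprint value bears on these windows directly.

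Among the progenitor subunits the actin-related protein showed the greatest decline. Actl6a (ENSMUSG00000027671, GRCm38.p6 chr3:32708546-32726973) had 104.9 and 107.5 CPM (E12.5), 92.1 and 88.9 (E14), 52.4 and 50.3 (E15.5), 30.2 and 27.8 (E17) and 13.05 and 15.54 (P0). Both libraries of each stage lay below both libraries of the stage before. The fall from E12.5 to P0 was 7.3-fold (log2 change -2.87, SE 0.11, limma-voom adjusted p = 5.63e-07). Actl6a was called lower at each step after E14, with log2 changes of -0.82 (E15.5 against E14), -0.82 (E17 against E15.5) and -0.995 (P0 against E17). The call at E17 against E15.5 was lost in 4 of 19 alternative settings, and that at P0 against E17 in 1 of 18. From E12.5 to E14 the log2 change was -0.23 (SE 0.10, adjusted p = 0.305), which did not pass.

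Ss18 (ENSMUSG00000037013), known from the fusion gene of synovial sarcoma, was called lower at every step from E14 onward. Its level was 39.8 and 39.9 CPM at E12.5 and 44.1 and 45.5 at E14. It then stood at 31.6 and 28.9 at E15.5, 20.5 and 21.4 at E17, and 8.48 and 11.4 at P0. The E14 libraries lay above those of E12.5, but that difference did not pass (log2 change 0.17, SE 0.12, adjusted p = 0.559). Ss18 fell at each of the following steps, by 0.57, 0.53 and 1.03 on the log2 scale, and by 3.87-fold from E12.5 to P0 (log2 change -1.95, SE 0.14, adjusted p = 7.35e-06). The call from E14 to E15.5 was lost in 3 of 19 alternative settings. Library sizes from total counts alone were among them, with a log2 change of -0.27. The call from E15.5 to E17 was lost in 11 of 19, and that from E17 to P0 in 1 of 18.

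Both progenitor PHD finger proteins were lower at P0, Dpf2 with the larger fitted change. Dpf2 (ENSMUSG00000024826, chr19:5896516-5912871), which reads acylated histone H3 tails, had 57.2 and 62.7 CPM (E12.5), 58.0 and 53.8 (E14), 38.9 and 35.8 (E15.5), 25.1 and 23.7 (E17) and 19.8 and 21.8 (P0). Its E12.5 and E14 libraries overlapped, and it fell at E15.5 (log2 change -0.58) and E17 (-0.62). With library sizes from total counts alone the change at E15.5 was -0.285, short of the fold threshold. The call at E17 was lost in 4 of 19 alternative settings. A further change of -0.22 to P0 did not pass (adjusted p = 0.199). The whole fall was 2.86-fold (log2 change -1.51, SE 0.11, adjusted p = 8.64e-06).

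Phf10 (ENSMUSG00000023883, chr17:14944994-14961260), which belongs to the polybromo form of the complex, declined in small steps. Its level was 35.9 and 29.3 CPM (E12.5), 27.9 and 28.5 (E14), 25.1 and 26.4 (E15.5), 21.9 and 24.3 (E17) and 16.6 and 19.9 (P0). The libraries of adjacent stages did not overlap, yet no single step passed the test. The change from E12.5 to P0 did (1.75-fold lower, log2 change -0.80, SE 0.14, adjusted p = 0.0011), but with library sizes from total counts alone its log2 change was -0.28 (adjusted p = 0.127).

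The ATPase Smarca4 (ENSMUSG00000032187, chr9:21616106-21704230) was called at a single step. It had 84.5 and 93.9 CPM (E12.5), 102.8 and 87.5 (E14), 76.7 and 78.8 (E15.5), 51.3 and 55.6 (E17) and 46.4 and 53.4 (P0). The libraries of E12.5 and E14 overlapped, as did those of E17 and P0. Only the step from E15.5 to E17 passed (log2 change -0.54, SE 0.12, adjusted p = 0.031, lost in 8 of 19 alternative settings), and Smarca4 was 1.78-fold lower at P0 than at E12.5 (log2 change -0.83, SE 0.12, adjusted p = 0.000475). With total counts the latter change was -0.30, short of the fold threshold.

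The neuronal actin-related protein Actl6b (ENSMUSG00000029712, chr5:137553361-137569582) had the largest rise of the members. Its level was 17.4 and 22.4 CPM (E12.5), 40.2 and 38.3 (E14), 113.2 and 111.1 (E15.5), 119.1 and 114.7 (E17) and 139.2 and 105.7 (P0). The libraries separated at each stage up to E17 and overlapped between E17 and P0. The rise was 1.97-fold from E12.5 to E14 (log2 change 0.98, SE 0.16, adjusted p = 0.0471, lost in 13 of 19 alternative settings) and 2.86-fold from E14 to E15.5 (log2 change 1.52, SE 0.15, adjusted p = 0.000248). After E15.5 no step passed, with log2 changes of 0.06 and 0.04. P0 was 6.04-fold above E12.5 (log2 change 2.59, SE 0.16, adjusted p = 3.79e-06).

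Ss18l1 (ENSMUSG00000039086, chr2:180042483-180070201), a coactivator known for its response to calcium in neurons, was called higher at the same stage. It had 4.79 and 5.31 CPM (E12.5), 7.95 and 8.27 (E14), 18.5 and 18.6 (E15.5), 18.7 and 19.1 (E17) and 22.4 and 20.2 (P0), with no overlap between adjacent stages. The rise from E14 to E15.5 was 2.28-fold (log2 change 1.19, SE 0.11, adjusted p = 0.00015). The steps after it had log2 changes of 0.03 and 0.16 and did not pass. From E12.5 to P0 the rise was 4.15-fold (log2 change 2.05, SE 0.12, adjusted p = 2.53e-06).

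The neuronal PHD finger protein Dpf1 (ENSMUSG00000030584, chr7:29303952-29317592) had its called step at E15.5. Its level was 36.6 and 40.6 CPM (E12.5), 56.7 and 57.4 (E14), 132 and 134.3 (E15.5), 145.4 and 139.1 (E17) and 137.9 and 123.2 (P0). The libraries of E15.5 and P0 overlapped, and the steps after E15.5 had log2 changes of 0.10 and -0.13 that did not pass. The rise was 2.33-fold from E14 to E15.5 (log2 change 1.22, SE 0.10, adjusted p = 0.00011) and 3.36-fold from E12.5 to P0 (log2 change 1.75, SE 0.10, adjusted p = 2.62e-06).

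Dpf3 (ENSMUSG00000021221, chr12:83213751-83487736), which is also known from heart and muscle development, had the fewest counts of the members, 42 to 304 a library. Its level was 2.31 and 2.92 CPM (E12.5), 4.90 and 6.34 (E14), 7.65 and 8.66 (E15.5), 5.56 and 5.41 (E17) and 4.90 and 7.26 (P0). Both E15.5 libraries were above all others. No step between adjacent stages passed, including the change of -0.56 on the log2 scale (SE 0.19, adjusted p = 0.108) from E15.5 to E17. Dpf3 was 2.41-fold higher at P0 than at E12.5 (log2 change 1.27, SE 0.24, adjusted p = 0.00174).

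Smarca2 (ENSMUSG00000024921, chr19:26605073-26778321), the alternative ATPase, rose with the widest spread. It had 172.7 and 122.8 CPM (E12.5), 162.1 and 181.4 (E14), 341.6 and 392 (E15.5), 420.6 and 427 (E17) and 216.3 and 547.9 (P0). The P0 libraries were 2.53-fold apart, a log2 gap of 1.34 where the gap at the 90th percentile of genes was 0.87, and they lay on either side of those of E15.5 and E17. The rise from E14 to E15.5 was 2.13-fold (log2 change 1.09, SE 0.36, adjusted p = 0.0453) and was lost in 11 of 19 alternative settings. P0 was 2.37-fold above E12.5 (log2 change 1.245, SE 0.37, adjusted p = 0.0167), and was 0.61 on the log2 scale without P0 replicate 2 (adjusted p = 0.0224) and 1.92 without P0 replicate 1 (adjusted p = 3.34e-05). Without E12.5 replicate 2 it was 0.99 and did not pass (adjusted p = 0.103). From E17 to P0 its log2 change of -0.30 did not pass (adjusted p = 0.585), but it was -0.94 and called without P0 replicate 2 (adjusted p = 0.00786) and 0.37 without P0 replicate 1 (adjusted p = 0.146). The comparison of E17 with E12.5 uses no P0 values in its means and gave 2.92-fold (log2 change 1.55, SE 0.37, adjusted p = 0.00724), or 1.29 without E12.5 replicate 2 (adjusted p = 0.0539).

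The steps between adjacent stages give the timing of the changes. From E12.5 to E14 only Actl6b was called, 1 of 10 members higher where 0.497% of all genes were, and 0 lower where 0.141% were (with total counts, 3 and 0 members beside 0.964% and 0.0964%). Dpf1 and Ss18l1 had adjusted p = 0.0514 each and Dpf3 had 0.0725, with log2 changes of 0.56, 0.68 and 1.09, and 5 members had an unadjusted p under 0.05. The count at this step depended on which libraries entered the fit, those of P0 included. It was 4 (Actl6b, Dpf1, Dpf3 and Ss18l1) without P0 replicate 1, without P0 replicate 2 and with DESeq2, and 0 without any of the other 8 libraries in turn.

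From E14 to E15.5, 4 members rose (Actl6b, Dpf1, Ss18l1 and Smarca2) where 16.5% of all genes did, and 3 fell (Actl6a, Dpf2 and Ss18) where 19.6% did. With library sizes from total counts alone, which shift the median of all genes by 0.29 on the log2 scale, 5 members were higher and 1 lower, beside 32.7% and 12.3% of all genes. Dpf3, Phf10 and Smarca4 did not pass, with log2 changes of 0.53, -0.13 and -0.28.

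From E15.5 to E17 the calls among members were all falls: 0 rose where 5.61% of all genes did, and 4 fell (Actl6a, Dpf2, Ss18 and Smarca4) where 3.43% did. The 4 falls became 0 when any E15.5 or E17 library was left out, with 4 or 5 members at an unadjusted p under 0.05, and 2 without either E12.5 library. From E17 to P0 only Actl6a and Ss18 were called, both lower, where 11.1% of all genes fell. No member rose there, where 9.46% of all genes did, by limma-voom, edgeR or DESeq2, and 2 members had an unadjusted p under 0.05, both of them lower. With total counts 13.5% of all genes rose and 7.85% fell at this step, and the 2 calls among members were again lower.

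**Figure D2:**
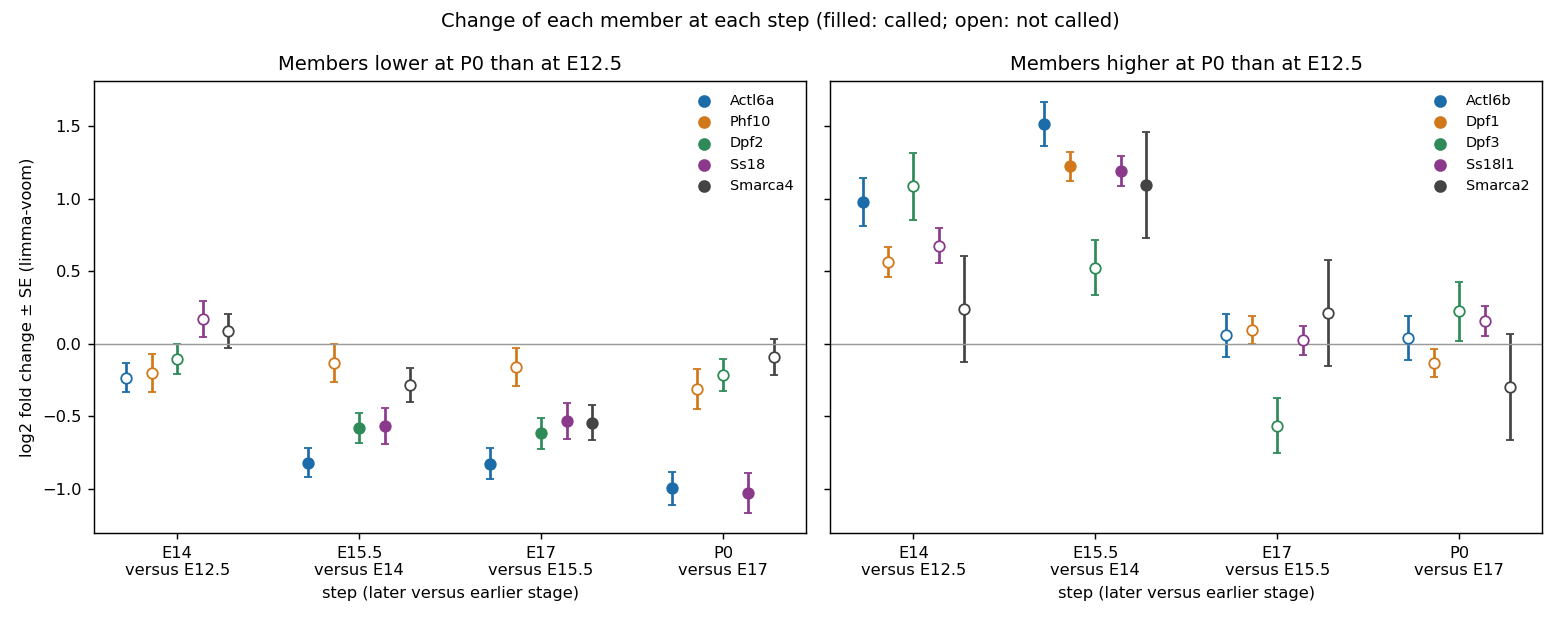
Log2 fold change (limma-voom, error bars SE) of each member at each step between adjacent stages. Filled points were called and open points were not. Filled points lie at the first and second steps in the right panel, and at the second to the last step in the left panel.

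Against E12.5 all 10 members were called at E17 as at P0, 5 higher where 26.9% of all genes were and 5 lower where 27.8% were. These comparisons share the E12.5 libraries, so one is no check of the other. With total counts, 5 members were higher and 4 lower at E17, beside 43.6% and 15.9% of all genes, and 5 higher and 3 lower at P0, beside 47.8% and 18.6% of all genes at P0. Total counts move the median of all genes by 0.51 on the log2 scale at P0 against E12.5. Relative to that median Actl6a changed by -2.86, Phf10 by -0.79, Smarca4 by -0.81 and Actl6b by 2.61. The change of scaling moves all genes nearly alike, so values relative to the median return those with TMM and are no separate check. No member changed its direction against E12.5 at E17 or P0 under any scaling, tool, filter or left-out library that was run.

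The ratio of paired subunits inside a library needs no scaling between libraries, and its change over time does not depend on gene length. The ratio of Actl6b to Actl6a footprint counts was 0.166 and 0.209 (E12.5), 0.436 and 0.43 (E14), 2.16 and 2.21 (E15.5), 3.94 and 4.13 (E17) and 10.7 and 6.8 (P0). It crossed 1 between E14 and E15.5 and was 45.7-fold higher at P0 than at E12.5, from the stage means of the log2 ratio. As a share of the counts of both genes, Actl6b made up 14.3% in E12.5 replicate 1 (95% exact binomial interval 12.8 to 15.8, counting error only) and 91.4% (89.8 to 92.8) in P0 replicate 1. In replicate 2 the shares were 17.3% (16.0 to 18.6) and 87.2% (86.2 to 88.1). The intervals of the replicates did not overlap at E12.5 or at P0, so at both stages the replicates differed by more than counting error.

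The Ss18l1 to Ss18 ratio went from 0.12 and 0.133 at E12.5 to 0.586 and 0.644 at E15.5, 0.893 and 0.912 at E17, and 2.64 and 1.77 at P0. It was 17.1-fold higher at P0 than at E12.5 and was still below 1 at E17. The ratio of Dpf3 to Dpf2 was 6.61-fold higher, from 0.0404 and 0.0465 to 0.247 and 0.333, and 5.03-fold higher at E15.5 already. Dpf1 to Phf10 was 6.03-fold higher at P0, from 1.02 and 1.39 to 8.29 and 6.19, with 4.36-fold reached at E15.5. For the ATPases the mean log2 ratio was highest at E17. Smarca2 to Smarca4 was 2.04 and 1.31 at E12.5, 8.2 and 7.68 at E17, and 4.66 and 10.3 at P0. For all 5 pairs both P0 libraries lay above both E12.5 libraries. Setting Dpf1 against Phf10 and Dpf3 against Dpf2 was a choice made here, since the exchange described above names these PHD finger proteins as groups. All the ratios are given as values with no test. Whether a ratio is above 1 depends on the lengths of the coding sequences, which were not used here.

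**Figure D3:**
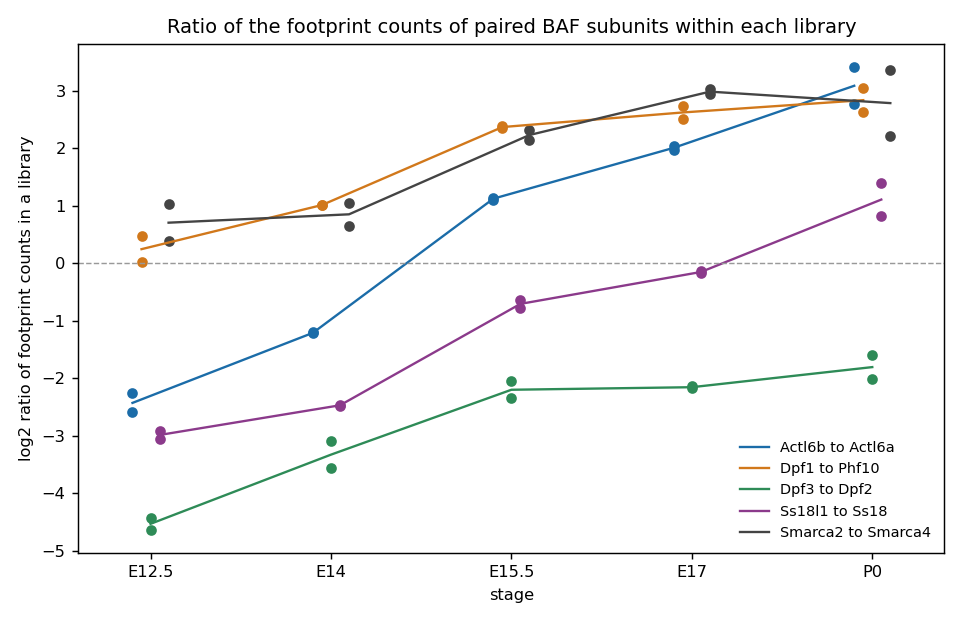
Log2 ratio of footprint counts of the paired subunits in each library by stage. Points are libraries, lines join the means of both, and the dashed line marks equal counts. Actl6b to Actl6a climbs farthest, and the 2 P0 libraries are apart in each pair, most in Smarca2 to Smarca4.

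The members of each direction also resembled one another across libraries. Over the 10 libraries, which fall into 5 stages and share their depth and scaling, Pearson's r of log2 CPM was 0.996 between Actl6b and Ss18l1, 0.994 between Actl6b and Dpf1, 0.979 between Actl6a and Dpf2 and 0.973 between Actl6a and Ss18. Dpf3 and Smarca2 were less alike, with r = 0.777 and 0.807 to Actl6b. The lowest r within a direction was 0.697 (Dpf3 and Smarca2) among those that rose and 0.843 (Phf10 and Smarca4) among those that fell. The directions come from these same libraries, so r within a direction is no separate support for them. Among 9214 genes that averaged 100 counts or more, those most like Actl6a were the kinetochore gene Dsn1 (r = 0.9985), the cohesion gene Cdca5 (0.9976) and the mitotic transcription factor Foxm1 (0.9975). Their mean levels went from 22.1 to 3.001 CPM, 21.5 to 1.49 and 9.95 to 1.02 between E12.5 and P0. Those most like Actl6b were Cdk5r1, an activator of the neuronal kinase Cdk5 (r = 0.9988, 25.0 to 125.8 CPM), Mpped1 (0.9981, 86.2 to 843.9) and the RNA-binding protein gene Celf5 (0.9978, 24.3 to 117.6). These are descriptions of a time course that many genes share.

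Marker genes of cell types moved over the same stages. All 10 neuron markers were higher at P0 than at E12.5, and their summed level went from 2358 and 2407 CPM at E12.5 to between 7661 and 8034 at E15.5 and between 10590 and 12100 at P0. Of 10 progenitor markers 8 fell and 2 (Fabp7 and Slc1a3, which glia also use) rose, with a median log2 change of -2.50. The summed progenitor level was 2197 to 2239 CPM at E12.5 and 1459 to 1993 at P0, to which Fabp7 alone gave 969 and 1486 as stage means. The part of these shifts in the members' changes was not tested.

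Markers of other tissue moved too. The 6 choroid plexus markers summed to 278 to 331 CPM at E12.5, 1121 to 1127 at E14 and 11.1 to 13.5 at E15.5, where at most 1 of them was at 0, and all 5 that were tested fell from E14 to E15.5. All 8 red blood cell markers fell from E12.5 to P0, with sums of 11010 to 11400 CPM and 1438 to 1861. Of 8 glia markers 7 rose, with sums of 9.35 to 10.7 CPM and 93.3 to 124.9, and of 8 vascular and microglia markers 6 fell, with sums of 41.2 to 42.6 CPM and 20.7 to 23.5. Their part in the members' changes was not tested.

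The other 21 BAF family subunits showed both directions as well. From E12.5 to P0, 5 rose where 30.1% of all genes did, and 7 fell where 32% did. The other 9 did not pass, and the median log2 change over the 21 was 0.18. With total counts the split was 14 higher and 2 lower, beside 47.8% and 18.6% of all genes. It was 4 higher and 4 lower with only the 2 stages compared in the fit, 4 and 5 with sample quality weights, and 6 and 7 with DESeq2. Leaving out any E12.5 or P0 library also moved the split. Those called with the largest rise were Bicral (log2 change 1.27, SE 0.19, 0.935 to 2.29 CPM), which marks the noncanonical form, the transcription factor Bcl11a (0.98, SE 0.09, 145.2 to 285.8 CPM) and Actb, the actin that pairs with the Actl6 proteins (0.74, SE 0.15, 5634 to 9431 CPM). The largest falls were those of Smarcd2 (-1.10, SE 0.22, 5.44 to 2.63 CPM), the scaffold Smarcc1 (-1.09, SE 0.16, 145.7 to 68.2 CPM) and the bromodomain gene Brd7 (-0.81, SE 0.17, 13.5 to 7.29 CPM). Directions of these 6 held in every setting run. Of 19 settings, the reported one included, Smarcd2 was called in 17, Brd7 in 18 and the others in all.

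Smarcc2, the relative of Smarcc1 and chosen here after its values were seen, went the other way, from 47.6 to 72.7 CPM (log2 change 0.61, SE 0.08, adjusted p = 0.000325). The core subunit Smarcb1 had 236.1 and 251.4 CPM as stage means (0.09, SE 0.09, adjusted p = 0.38), also chosen after its values were seen. From E12.5 to E14, 0 other subunits were called by limma-voom, where 0.497% of all genes rose and 0.141% fell. At that step 5 had an unadjusted p under 0.05. From E14 to E15.5, 4 rose and 1 fell, beside 16.5% and 19.6% of all genes. From E15.5 to E17, 0 rose and 1 fell, beside 5.61% and 3.43%. From E17 to P0, 1 rose and 2 fell, beside 9.46% and 11.1%. At E17 against E12.5, 6 rose and 4 fell, beside 26.9% and 27.8% of all genes. On the size of change at P0 against E12.5, 4 of the 5 members that rose and 3 of the 5 that fell lay beyond or level with every other subunit in their direction.

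**Figure D4:**
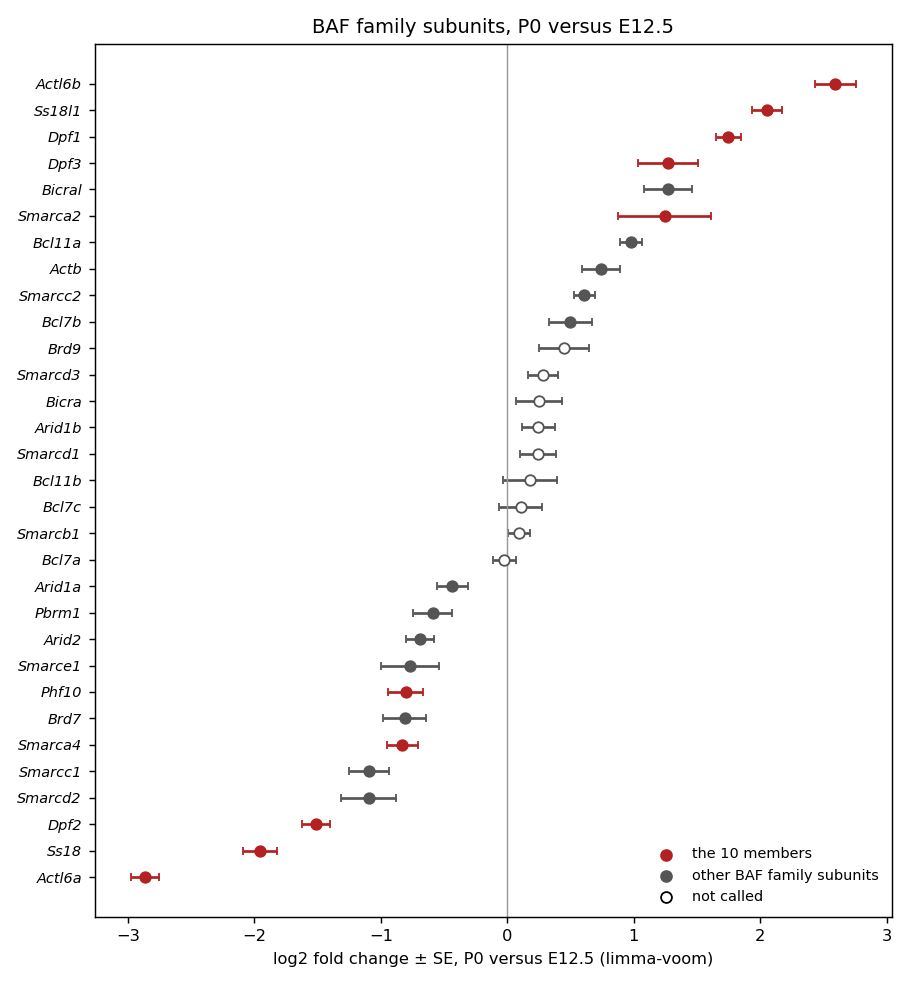
Log2 fold change at P0 against E12.5 (limma-voom, error bars SE) of the 10 members (red) and 21 other BAF family subunits (grey), in order of size. Filled points were called. Actl6b, Ss18l1 and Dpf1 stand at one end and Actl6a, Ss18 and Dpf2 at the other, while Smarcb1 and Bcl7a are near 0.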

How the data were processed

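The authors deposited footprint counts per gene as whole numbers, unscaled, in a table of 22373 genes and 10 libraries. Per the study's methods, footprints were made with RNase T1 and RNase A, adapters were trimmed, duplicate sequences collapsed, contaminant RNA reads removed and the rest aligned with STAR (2.7.0 in the submitters' processing notes), keeping reads that match several places, so genes with near-identical copies are uncertain. The methods name DeepShape-prime for footprint abundances, tximport for length-corrected gene counts and GENCODE M12. Whether the deposited whole numbers are that output is not stated, and the table names no genome build, so coordinates come from RefSeq GRCm38.p6. Symbols were matched for 22274 identifiers and not for 99.

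Counts were analysed in R 4.3.3 with edgeR 4.0.16 (TMM) and limma 3.58.1 (voom, 1 coefficient per stage, all 10 libraries, two-sided moderated tests). Genes with at least 32 footprints in a stage were kept (13484 genes). Logs of CPM used a pseudocount of 0.5. The call rule was an adjusted p below 0.05 with a log2 change of 0.32 or more in size, applied in 6 comparisons of stages, and a moderated F test covered the 5 stages. The named genes were the 10 members, the 3 other subunits with the largest called change in each direction from E12.5 to P0, and the 3 genes most like Actl6a and Actl6b by Pearson's r. Members, lists and rules were chosen with earlier results of these data known. The code was tested on simulated counts. Alternatives were total counts, library sizes outside histone genes, edgeR's quasi-likelihood test, DESeq2 1.42.0, no filter, quality weights, a replicate block, fits of only the stages compared and leaving out libraries. Intervals cover counting error only. Depth ranged from 7544404 to 36129988 counts a library. Part of the neocortex marker list is not reported here.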

Additional observations from a re-analysis of the deposited data

How the results depend on the processing

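All directions of the 10 members against E12.5 at E17 and at P0, and the counts of calls in these comparisons (9 to 10 and 8 to 10), at E15.5 against E14 (5 to 8) and in the F test (9 to 10), stayed within 1.5 times the reported ones in the alternatives run. From E12.5 to E14, the 1 call became 3 with total counts, 4 with DESeq2, 4 with sample quality weights, and 0 with library sizes outside histone genes, with no filter on low counts and with only those stages in the fit. Leaving out 1 library gave 0 to 4 calls, and leaving out both P0 libraries, chosen after seeing the data, gave 4. From E15.5 to E17, the 4 calls became 2 with no filter and 0 to 5 without 1 library. From E17 to P0, the 2 calls became 0 with only those stages in the fit and were 2 to 3 without 1 library. The cause was not tested.

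The deviations of same-numbered libraries correlated at over 0.1 in 5 of 10 pairs of stages, all among E14, E15.5, E17 and P0 (0.207 to 0.427). E14 with E17 gave -0.044 and the 4 pairs with E12.5 gave -0.633 to -0.108. Since not every pair was over 0.1 and no label ties the numbers to a litter or batch, they were not used to pair samples. With the replicate number as a block the calls were 0 from E12.5 to E14, 7 from E14 to E15.5, 2 from E15.5 to E17, 2 from E17 to P0, and 10 against E12.5 at E17 and at P0.

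Among the 10 members, sign changes were seen only in values that had not passed. Among the other subunits, the called change of Arid1a at P0 against E12.5 (-0.44, chosen after its values were seen) was 0.09 with total counts. With total counts Phf10 was at 0.16 and Smarca4 at 0.01 on the log2 scale at E15.5 against E14, and Smarca4 at 0.025 at P0 against E17. Without E12.5 replicate 2, Smarca2 was at -0.009 at E14 against E12.5 (range without 1 library up to 0.482), and without E14 replicate 1, Smarca4 was at -0.025 (up to 0.207). At P0 against E17, leaving out P0 replicate 1 gave -0.14 for Actl6b, 0.37 for Smarca2 and 0.003 for Smarca4, and leaving out P0 replicate 2 gave -0.12 for Dpf3. The other ends of these ranges were 0.28 for Actl6b, -0.94 for Smarca2, -0.17 for Smarca4 and 0.40 for Dpf3. Ratios per kilobase of coding sequence were not run, since coding lengths were not used here. P0 replicate 1 is the shallowest library and holds 45 Dpf3 and 120 Actl6a counts, so P0 values of low genes are the least precise.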
